A study of Mus musculus with 30 samples.

Results

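The transcripts of 8 genes, the aryl hydrocarbon receptor Ahr, its partner Arnt, its repressor Ahrr, its targets Cyp1a1, Cyp1a2, Cyp1b1 and Tiparp, and the hepatic cytochrome P450 Cyp2a5, were followed in mouse liver. They were taken by gene identifier from a table of 55335 genes, in which all 8 have a row. RNA-seq was performed on whole livers of male mice aged 7 to 10 weeks, collected 24 hours after 1 oral dose of vehicle or of CDDO-Me at 30 µmol/kg. CDDO-Me (bardoxolone methyl) is a synthetic triterpenoid that reacts with cysteines of KEAP1, the protein that marks the transcription factor NRF2 for degradation. There were 6 groups of 5 mice, 1 library per mouse: wild-type, C151S and Nrf2-knockout mice, each given vehicle or CDDO-Me. C151S mice were homozygous for a Keap1 allele that encodes serine in place of the cysteine that the study describes as the sensor for CDDO-Me. Nrf2-knockout mice lacked functional Nfe2l2. Both alleles were carried on an albino C57BL/6J background and were present in every cell of the animal, not in hepatocytes alone. Wild-type mice of this background came from the Jackson Laboratory, and homozygous mutants were used for mating. Differences between mutant and wild-type mice therefore cannot be told apart from differences between colonies.

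AHR is a ligand-activated transcription factor. It waits in the cytoplasm in a complex with HSP90 chaperones, moves to the nucleus when a planar aromatic ligand binds, pairs with ARNT and activates genes of foreign-compound metabolism through elements with the core GCGTG. CYP1A1 and CYP1A2 oxidize polycyclic and heterocyclic aromatic compounds, CYP1B1 does so mostly outside the hepatocyte, and TIPARP and AHRR act back on the receptor to limit its activity. Cyp2a5 encodes the coumarin 7-hydroxylase of mouse liver, which also oxidizes nicotine and bilirubin. Its transcription has been tied to AHR, to NRF2, to the nuclear receptor CAR and to the circadian output factor DBP.

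The libraries held between 23667068 and 42073169 counts on genes, and 3 counts in a library, taken here as the floor of detection, corresponded to 0.0713 to 0.127 CPM (counts per 1000000 normalised counts on genes). Summed hepatocyte markers ranged from 73729 to 158993 CPM, and summed lymphocyte markers, at the other end, from 1.32 to 4.59 CPM. In whole liver, fewer cells of a type and less RNA per cell cannot be told apart. Nqo1, a quinone reductase and standard target of NRF2, rose from 7.20 ± 2.38 to 64.3 ± 25.0 CPM (SD, n = 5) in wild-type mice and had means between 1.96 and 7.05 CPM in the mutant groups. Arntl, the core clock gene that encodes BMAL1, divided the libraries: it lay between -1.15 and 0.90 log2 CPM in 11 of them, 5 from C151S and 6 from Nrf2-knockout mice, and between 2.52 and 4.79 log2 CPM in the other 19, which included every wild-type library. The low-Arntl libraries were replicates 4 and 5 of the vehicle-treated and 3, 4 and 5 of the CDDO-Me-treated C151S mice, and replicates 1, 2 and 3 of the vehicle-treated and 1, 3 and 4 of the CDDO-Me-treated Nrf2-knockout mice. These sets were read from the data and are not groups of the study. The high-Arntl set held all 5 mice of each wild-type group, 3 vehicle-treated and 2 treated C151S mice, and 2 Nrf2-knockout mice of each treatment. For called differences that rest on mutant mice, the value among the high-Arntl libraries alone is given beside the one from all libraries, and what put the libraries on different sides of the gap was not tested.

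Per kilobase of exon and averaged over the 30 libraries, Cyp2a5 (453 CPM per kb) and Cyp1a2 (310.3 CPM per kb) were far more abundant than the other members. Arnt (5.79) and Ahr (5.64) followed, then Tiparp (1.28), Cyp1a1 (0.595), Cyp1b1 (0.118) and Ahrr (0.0117 CPM per kb). The averages of Arnt and Ahr lay closer together than the mice did, since Ahr alone ranged 2.12-fold among vehicle-treated Nrf2-knockout mice. Of the 8 genes, 7 passed edgeR's expression filter in every comparison and Ahrr passed in none.

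In wild-type mice CDDO-Me raised 3 of the 7 tested members, Cyp2a5, Cyp1a1 and Cyp1a2, whereas Ahr, Arnt, Tiparp and Cyp1b1 were not called. Calls required an adjusted p under 0.05 (edgeR's quasi-likelihood test, Benjamini-Hochberg over all genes tested) together with a change of 0.5 or more in either direction on the log2 scale. By the same rule 377 of 13697 genes, or 2.75%, were called in this comparison. In C151S mice 0 of 7 members were called against 0.0920% of all genes (13 of 14128), and in Nrf2-knockout mice 0 of 7 against 0% (0 of 14474, of which 1136 had an unadjusted p under 0.05 and 55 were called by DESeq2). In the same 2 comparisons no member had an unadjusted p under 0.05. The median log2 fold change over the 7 members was 0.18 in wild-type, 0.10 in C151S and -0.08 in Nrf2-knockout mice, beside medians over all genes tested of -0.01 in each genotype.

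**Figure D1:**
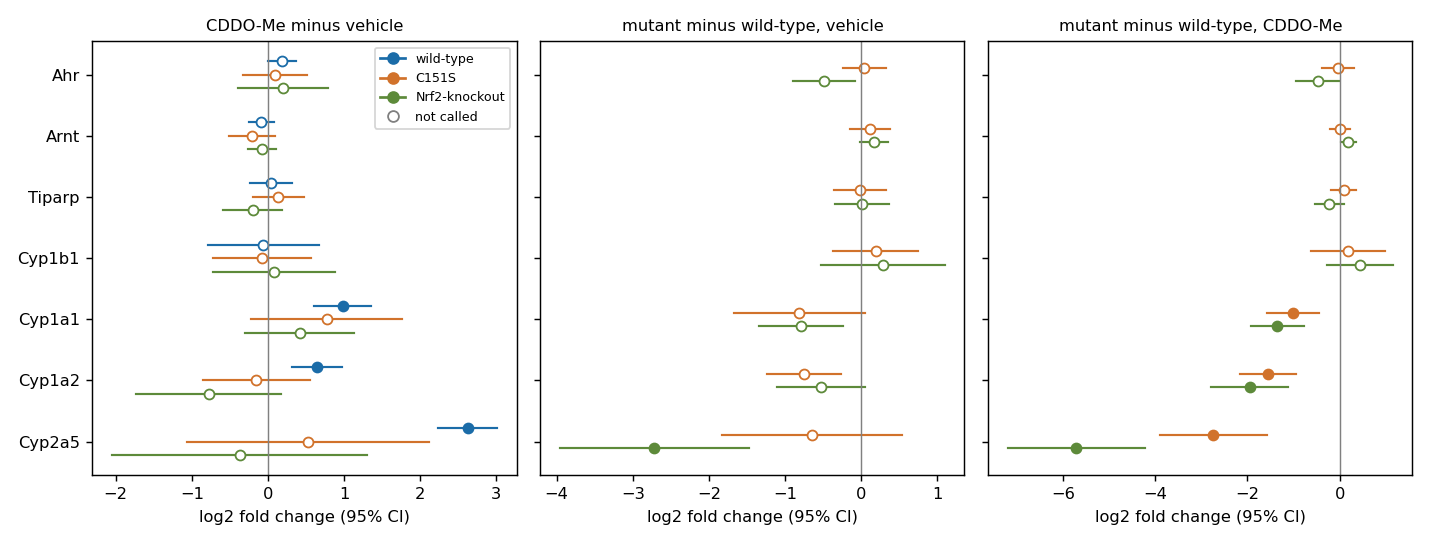
Log2 fold changes of the 7 tested members (dots) with 95% confidence intervals (lines) for CDDO-Me minus vehicle within each genotype, and for each mutant genotype minus wild-type under vehicle and under CDDO-Me; filled dots were called, open dots were not, and each panel has its own x axis. Cyp1a1, Cyp1a2 and Cyp2a5 lie above 0 in treated wild-type mice and below 0 in both mutants under CDDO-Me, while no dot of Ahr, Arnt, Tiparp or Cyp1b1 is filled.

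Ahr (ENSMUSG00000019256.17, chromosome 12, 35497974 to 35535038, minus strand, GRCm38) encodes the receptor. In the vehicle-treated wild-type mice, in order of replicate, it was expressed at 36.3, 31.4, 32.9, 40.6 and 40.0 CPM, and in the CDDO-Me-treated ones at 45.9, 39.6, 40.7, 38.3 and 42.0 CPM. The ranges overlapped, and the log2 difference of 0.18 (95% CI 0.0035 to 0.36) had an adjusted p of 0.284 (edgeR). C151S mice averaged 36.9 ± 7.70 CPM with vehicle and 39.6 ± 10.3 CPM with CDDO-Me. Nrf2-knockout mice had the lowest means, 25.4 ± 8.01 CPM with vehicle and 29.2 ± 10.6 CPM with CDDO-Me (SD, n = 5 each). The difference from wild-type mice was -0.49 (SE 0.19, adjusted p = 0.0918, edgeR) with vehicle and -0.48 (SE 0.21, adjusted p = 0.159, edgeR) with CDDO-Me on the log2 scale, so that neither passed. Nrf2-knockout mice spanned 17.6 to 37.4 CPM with vehicle, and without replicate 4, the highest of them, Ahr was called (-0.68, adjusted p = 0.0123, edgeR). The Arntl sets did not separate Ahr: Nrf2-knockout libraries of the low set had a median of 25.9 CPM (n = 6) and those of the high set 29.8 CPM (n = 4), with overlapping ranges.

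Arnt (ENSMUSG00000015522.18, chromosome 3, 95434388 to 95497240, plus strand) encodes the partner that AHR and other bHLH-PAS factors share. It was the least variable member, with group means between 42.4 and 50.5 CPM. Vehicle-treated wild-type mice had 46.6, 37.7, 47.0, 48.2 and 47.7 CPM and CDDO-Me-treated ones 41.6, 42.7, 46.5, 44.4 and 39.6 CPM. All 3 effects of CDDO-Me were small and negative, -0.09 in wild-type (adjusted p = 0.617), -0.21 in C151S (adjusted p = 0.494) and -0.08 in Nrf2-knockout mice (adjusted p = 0.840, edgeR), and no comparison called the gene. The 5 C151S libraries of the low-Arntl set lay between 34.6 and 45.4 CPM, and the 5 of the high set between 43.4 and 60.3 CPM.

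Tiparp (ENSMUSG00000034640.9, chromosome 3, 65528410 to 65555518, plus strand) encodes an ADP-ribosyltransferase that AHR induces and that limits the receptor. Its 6 group means lay between 4.89 and 6.08 CPM. In wild-type mice it was 5.58 ± 0.802 CPM with vehicle and 5.78 ± 0.765 CPM after CDDO-Me (SD, n = 5 each). The log2 difference was 0.04 with a 95% CI from -0.24 to 0.31. It was not tested against the rises of Cyp1a1 and Cyp1a2 in the same mice, given further on. In C151S mice the difference was 0.14 (95% CI -0.20 to 0.48) and in Nrf2-knockout mice -0.20 (95% CI -0.59 to 0.19).

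Ahrr (ENSMUSG00000021575.16, chromosome 13, 74211118 to 74292331, minus strand) encodes the AHR repressor. It had between 0 and 11 counts per library and 111 counts over the 30 libraries, and 18 libraries were at or under the floor of 3 counts. Exact 2-sided permutation tests of the mean CPM (smallest p allowed 0.00794) gave p = 0.738 for CDDO-Me in wild-type, 0.349 in C151S and 0.0635 in Nrf2-knockout mice. At this depth no change of Ahrr was detectable, and none of the 7 comparisons of 2 groups had an exact p under 0.05.

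Cyp1b1 (ENSMUSG00000024087.4, chromosome 17, 79701537 to 79715061, minus strand) encodes a P450 of extrahepatic and mesenchymal cells. It had 9 to 42 counts per library. Its means were 0.625 ± 0.188 and 0.587 ± 0.295 CPM in wild-type, 0.699 ± 0.142 and 0.662 ± 0.268 CPM in C151S, and 0.750 ± 0.365 and 0.794 ± 0.197 CPM in Nrf2-knockout mice, vehicle first (SD, n = 5 each). No comparison called it, and its intervals were wide: the effect of CDDO-Me in wild-type mice was -0.06 with a 95% CI from -0.79 to 0.67 on the log2 scale. Of 8 stellate cell and fibroblast markers, 4 were higher in vehicle-treated Nrf2-knockout than wild-type mice and 0 lower, and their summed level was 178 to 266 CPM in wild-type and 194 to 525 CPM in Nrf2-knockout mice. That comparison called 10.4% of all genes. Among high-Arntl libraries alone, where 1168 genes were called, 5 of the 8 were higher. The corresponding difference of Cyp1b1 was 0.29 (SE 0.37, adjusted p = 0.614, edgeR), and 5 of 8 endothelial markers were higher as well, in all libraries and in the high-Arntl ones. The part of such cells in the values of Cyp1b1 was not tested.

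**Figure D2:**
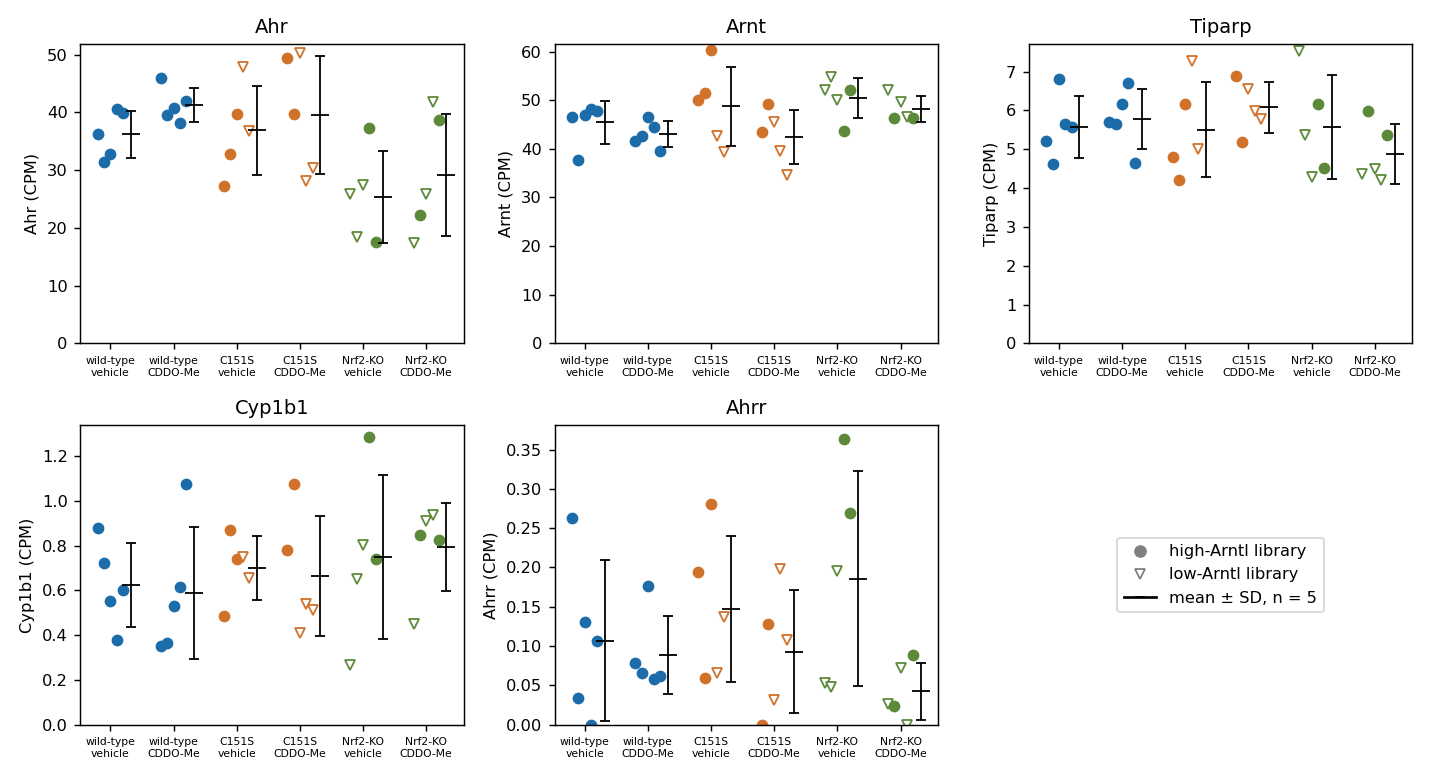
CPM of Ahr, Arnt, Tiparp, Cyp1b1 and Ahrr in each of the 30 mice by group, with the mean and SD of 5 mice beside each group (y axes in CPM from 0; Nrf2-KO, Nrf2-knockout); filled circles are high-Arntl and open triangles low-Arntl libraries. The vehicle and CDDO-Me mice of each genotype overlap in every panel, and the Nrf2-knockout mice hold the lowest Ahr values.

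Cyp1a1 (ENSMUSG00000032315.6, chromosome 9, 57687928 to 57703824, plus strand) is the classic AHR target and lies head to head with Cyp1a2, with 13958 bases between their RefSeq start sites. The 300 bases from 250 before to 50 after the start are shown because Cyp1a1 rose with CDDO-Me and this window holds 1 match to the AHR core, in capitals, beginning 54 bases before the start site (RefSeq, GRCm38.p6, chr9:57697363-57697662, plus strand).
Cyp1a1: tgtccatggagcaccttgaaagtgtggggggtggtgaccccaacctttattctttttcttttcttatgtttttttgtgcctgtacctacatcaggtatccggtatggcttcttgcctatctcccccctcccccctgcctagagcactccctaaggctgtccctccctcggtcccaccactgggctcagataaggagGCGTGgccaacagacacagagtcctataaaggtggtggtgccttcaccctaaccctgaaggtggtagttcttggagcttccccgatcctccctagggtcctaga
GCGTG, searched on both strands, was present in the corresponding windows of 5 of the 7 members that matched the RefSeq table (Arnt, Ahrr, Cyp1a1, Cyp1b1 and Tiparp) and in 32.4% of all 32817 windows of this length. The windows of Cyp1a2 and Cyp2a5 held no such match. The antioxidant response element TGACNNNGC was present in 1 of the 7 windows, that of Arnt, and in 12.4% of all windows, and the E-box CACGTG and the D-box TTANGTAA were in 0 of the 7 windows and in 7.15% and 2.32% of all. No match overlapped another in these windows, and elements farther upstream were not examined. Whether AHR binds any of these matches, that of Cyp1a1 included, was not tested.

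The transcript of Cyp1a1 was rare at 11 to 149 counts per library. Of the 50-base stretches in its annotated transcripts, 3.43% also occur in the far more abundant Cyp1a2. Vehicle-treated wild-type mice had 1.76, 1.30, 1.55, 2.04 and 1.84 CPM, and CDDO-Me-treated wild-type mice 3.21, 3.70, 2.89, 4.37 and 2.64 CPM. Every treated wild-type mouse lay above every vehicle-treated one, and how many of all genes part the groups in this way was not counted. Cyp1a1 averaged 1.70 ± 0.282 CPM without and 3.36 ± 0.687 CPM with the compound (SD, n = 5 per group), 1.98-fold more (0.98 in log2, SE 0.17, adjusted p = 0.00706, edgeR). In C151S mice the values were 0.355, 0.599, 0.485, 1.43 and 1.91 CPM with vehicle and 1.15, 0.896, 2.38, 2.03 and 1.75 CPM with CDDO-Me. These overlapped, and the log2 difference of 0.77 was not called (95% CI -0.22 to 1.76, adjusted p = 0.447, edgeR). The interval of the C151S response contained the wild-type fold change. Nrf2-knockout mice had 1.10, 0.553, 0.717, 1.25 and 1.28 CPM with vehicle and 1.57, 0.677, 1.39, 1.91 and 1.00 CPM with CDDO-Me, a log2 difference of 0.41 (95% CI -0.31 to 1.13, adjusted p = 0.781, edgeR).

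In C151S mice Cyp1a1 followed the Arntl sets without overlap: the 3 high-Arntl vehicle libraries had 0.355 to 0.599 CPM and the 2 low-Arntl ones 1.43 and 1.91 CPM, and after CDDO-Me the 2 high-Arntl libraries had 0.896 and 1.15 CPM and the 3 low-Arntl ones 1.75 to 2.38 CPM. How many of all genes follow the sets without overlap was not counted. In each set the treated C151S mice were higher on average, by 1.078 among high-Arntl and 0.29 among low-Arntl libraries on the log2 scale. Nrf2-knockout mice did not show the same order, since their low-Arntl vehicle libraries (0.553 to 1.10 CPM) lay below their high-Arntl ones (1.25 and 1.28 CPM). The effect of CDDO-Me in Nrf2-knockout mice was -0.61 among high-Arntl and 1.04 among low-Arntl libraries. None of these 4 values was called.

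Cyp1a2 (ENSMUSG00000032310.4, chromosome 9, 57676937 to 57683703, minus strand) encodes the constitutive CYP1A enzyme of hepatocytes. Vehicle-treated wild-type mice had 894, 533, 716, 854 and 921 CPM and CDDO-Me-treated ones 1220.1, 908, 1402, 1368 and 1264 CPM. The ranges met only at the lowest treated mouse, replicate 2, which lay below the highest vehicle-treated mouse. Cyp1a2 averaged 784 ± 161 CPM without and 1232 ± 196 CPM with the compound (SD, n = 5 per group), 1.57-fold more (0.65 in log2, SE 0.15, adjusted p = 0.0327, edgeR). This call was lost when any of 5 mice was left out, treated replicate 1, 3 or 4 or vehicle-treated replicate 3 or 4, with adjusted p between 0.0513 and 0.0931 (edgeR).

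The mutants showed no such rise. C151S mice had 352, 399.9, 328, 779 and 452 CPM of Cyp1a2 with vehicle and 249.9, 263, 722, 507 and 342 CPM with CDDO-Me. Nrf2-knockout mice had 935, 407, 313, 402 and 639 CPM with vehicle and 385, 89.9, 299, 588 and 210.1 CPM with CDDO-Me. The log2 differences were -0.15 (95% CI -0.85 to 0.55) and -0.78 (95% CI -1.73 to 0.17), with adjusted p of 0.838 and 0.693 (edgeR). Among high-Arntl libraries they were -0.49 and -1.80, and neither was called. The 4 high-Arntl mutant mice given CDDO-Me, 2 of each genotype, had the 4 lowest values of all 30 mice, at 263 CPM or below.

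**Figure D3:**
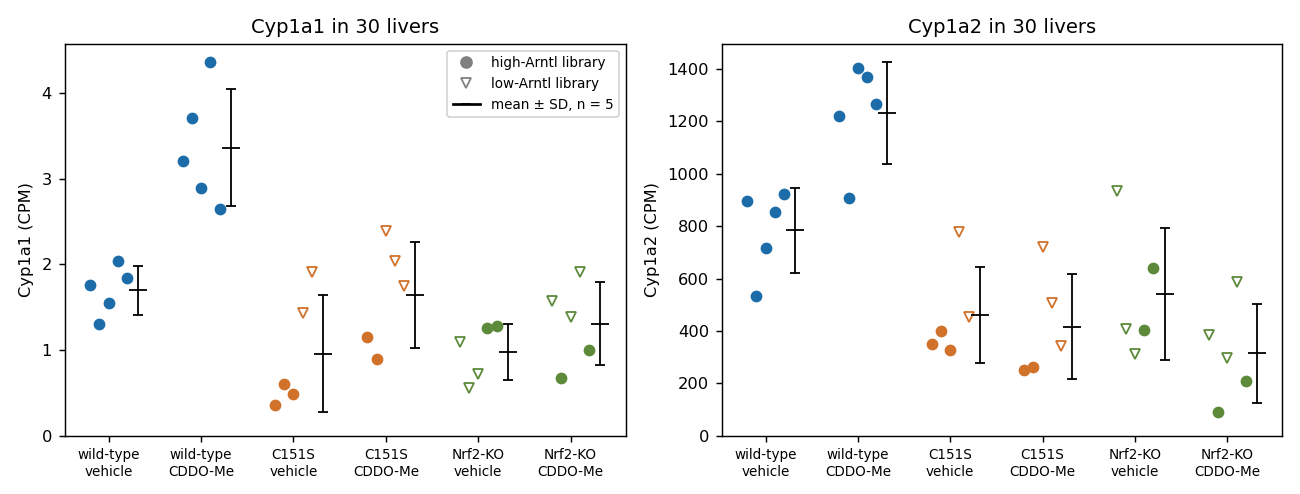
CPM of Cyp1a1 (left) and Cyp1a2 (right) in each of the 30 mice by group, with the mean and SD of 5 mice beside each group (y axes from 0; Nrf2-KO, Nrf2-knockout); filled circles are high-Arntl and open triangles low-Arntl libraries. Treated wild-type mice, at 2.64 to 4.37 CPM of Cyp1a1 and 908 to 1402 CPM of Cyp1a2, lie above all treated mutant mice.

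Under CDDO-Me both genes separated wild-type from mutant mice. Cyp1a1 was 2.05-fold lower in C151S (log2 fold change -1.02, SE 0.26, adjusted p = 0.0378, edgeR) and 2.57-fold lower in Nrf2-knockout mice (-1.35, SE 0.26, adjusted p = 0.00662, edgeR). Cyp1a2 was 2.96-fold lower in C151S (-1.55, SE 0.28, adjusted p = 0.00791, edgeR) and 3.92-fold lower in Nrf2-knockout mice (-1.95, SE 0.38, adjusted p = 0.00642, edgeR). In all 4 cases the groups of 5 did not overlap, but how often this holds over all genes was not counted. An unadjusted p under 0.05 (edgeR) was found for 3402 genes in C151S and 4013 in Nrf2-knockout mice. Cyp2a5, described next, was the third member called in both comparisons, which makes 3 of 7 members lower against 5.0% of all genes called in either direction for C151S and 9.44% for Nrf2-knockout mice. The call of Cyp1a1 in C151S mice was lost when any of 6 mice was left out, C151S replicate 4 or 5 or wild-type replicate 1, 2, 3 or 4 (adjusted p 0.0581 to 0.0956, edgeR), but among high-Arntl libraries alone it was -1.71 (adjusted p = 0.0176, edgeR). In that set Cyp1a1 was -1.98 in Nrf2-knockout mice (adjusted p = 0.00647), and Cyp1a2 was -2.25 in C151S (adjusted p = 0.00108) and -3.00 in Nrf2-knockout mice (adjusted p = 0.00210, edgeR). Each of these high-Arntl values compares 2 treated mutant mice with 5 treated wild-type mice. The Arntl split also separates Cyp1a1 within the C151S mice.

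With vehicle, neither gene was called between a mutant and wild-type. Cyp1a1 was 1.77-fold lower in C151S (-0.81, SE 0.40, adjusted p = 0.214) and 1.73-fold lower in Nrf2-knockout mice (-0.78, SE 0.25, adjusted p = 0.0538, edgeR). In the latter the 2 groups did not overlap, which was not counted over all genes. Cyp1a2 was 1.70-fold lower in C151S mice (-0.75, SE 0.22, adjusted p = 0.0607, edgeR). Among high-Arntl libraries alone both genes were called lower in vehicle-treated C151S than wild-type mice, Cyp1a1 at -1.78 (adjusted p = 0.00144) and Cyp1a2 at -1.09 (adjusted p = 0.00202, edgeR). This fit of 3 C151S and 5 wild-type mice called 2030 genes, against 675 with all libraries. It follows a split that also separates Cyp1a1 within the C151S mice. In Nrf2-knockout mice Cyp1a2 was -0.53 (SE 0.26, adjusted p = 0.181, edgeR), and among high-Arntl libraries neither gene was called.

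Cyp2a5 (ENSMUSG00000005547.14, chromosome 7, 26835305 to 26843548, plus strand) had the largest change of all members. It has a relative close in sequence, Cyp2a4, which encodes a steroid 15-alpha-hydroxylase and starts 528147 bases away on chromosome 7. Of the 50-base stretches in the annotated transcripts of Cyp2a5, 37% also occur in other genes, and 28.1% occur in Cyp2a4. Reads that lay wholly in stretches shared with Cyp2a4 have more than 1 position and were not counted for either gene. The start windows of the pair are shown to compare their sequences and do not tell which gene responded. They are identical at 294 of 299 aligned bases (98.3%), and the 5 bases that differ are in capitals (RefSeq, GRCm38.p6, chr7:26835089-26835388 for Cyp2a5 and chr7:26306942-26307241 for Cyp2a4, both on the plus strand).
Cyp2a5: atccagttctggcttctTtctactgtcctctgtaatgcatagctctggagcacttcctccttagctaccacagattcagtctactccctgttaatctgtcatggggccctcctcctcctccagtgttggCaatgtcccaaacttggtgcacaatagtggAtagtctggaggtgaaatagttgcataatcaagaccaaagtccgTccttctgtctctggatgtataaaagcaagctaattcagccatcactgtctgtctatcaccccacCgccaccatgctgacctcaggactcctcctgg
Cyp2a4: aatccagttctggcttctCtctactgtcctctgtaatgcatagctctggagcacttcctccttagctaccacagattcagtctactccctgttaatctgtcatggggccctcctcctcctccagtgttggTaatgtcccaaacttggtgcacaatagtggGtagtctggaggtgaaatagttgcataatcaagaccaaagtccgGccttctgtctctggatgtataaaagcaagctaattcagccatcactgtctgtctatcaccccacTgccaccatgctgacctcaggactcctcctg
Neither window held an exact match to the 4 motifs searched, and looser forms of these motifs were not searched.

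In wild-type mice Cyp2a5 stood at 835, 498, 519, 692 and 585 CPM with vehicle and at 3540.3, 2838, 3568, 4651 and 4760.4 CPM with CDDO-Me. The lowest treated mouse was more than 3-fold above the highest vehicle-treated mouse. Cyp2a5 averaged 626 ± 139 CPM without and 3871 ± 817 CPM with the compound (SD, n = 5 per group), 6.19-fold more (2.62 in log2, 95% CI 2.23 to 3.01, SE 0.18, adjusted p = 5.08e-06, edgeR). By p-value this was the gene ranked 8 of 13697. It was called in each of the 10 fits that left out 1 mouse, and in 1 fit of all 30 libraries, where the spread of the mutants enters, the same fold change had an SE of 0.73 and an adjusted p of 0.0753 (edgeR).

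C151S mice had 157, 174, 87.9, 997 and 585 CPM of Cyp2a5 with vehicle and 148, 169, 1286, 759 and 509.7 CPM with CDDO-Me. Nrf2-knockout mice had 229, 47.3, 145, 23.8 and 28.0 CPM with vehicle and 61.4, 14.7, 52.0, 211 and 24.6 CPM with CDDO-Me. In both genotypes the treated and untreated mice overlapped almost entirely. The log2 difference was 0.52 in C151S mice (95% CI -1.07 to 2.11, adjusted p = 0.752, edgeR) and -0.37 in Nrf2-knockout mice (95% CI -2.05 to 1.30, adjusted p = 0.925, edgeR). The upper bounds of both intervals lay below the lower bound of the wild-type interval.

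The spread among the mutant mice was large and ran with Arntl. Within a mutant group Cyp2a5 varied from 8.71-fold to 14.4-fold between the lowest and highest mouse, against 1.68-fold in either wild-type group. In C151S mice the 5 low-Arntl libraries had 509.7 to 1286 CPM and the 5 high-Arntl libraries 87.9 to 174 CPM. In Nrf2-knockout mice the 6 low-Arntl libraries had 47.3 to 229 CPM and the 4 high-Arntl libraries 14.7 to 28.0 CPM. The sets did not overlap in either genotype, and the order held within each treatment. How many of all genes these sets part in this way was not counted. Transcripts of Dbp, which encodes a circadian activator of P450 genes, were also set apart, at 119 to 161 CPM in the low-Arntl and 9.03 to 66.3 CPM in the high-Arntl C151S libraries. Cyp1a2 had medians of 507 and 328 CPM in the low-Arntl and high-Arntl C151S libraries, with overlapping ranges. In Nrf2-knockout mice the order of its medians turned with treatment, 407 and 521 CPM with vehicle and 385 and 150.0 CPM with CDDO-Me, low-Arntl first.

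**Figure D4:**
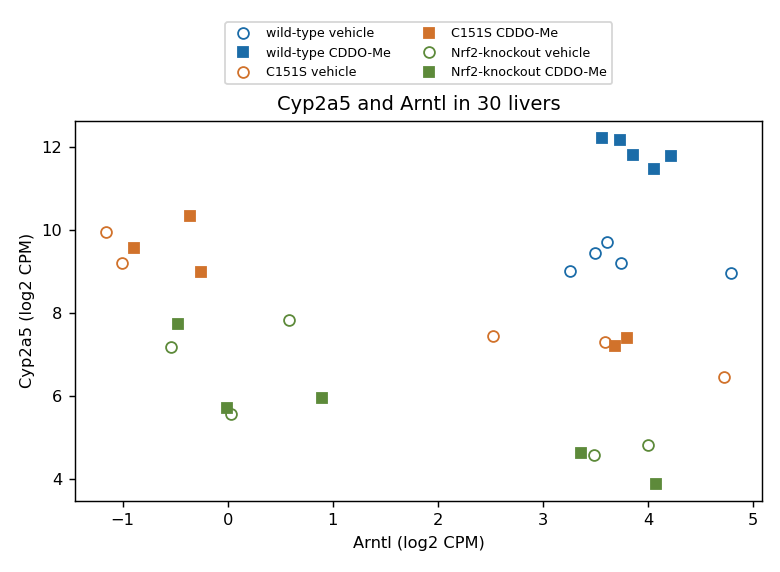
Cyp2a5 (y axis, log2 CPM) against Arntl (x axis, log2 CPM) in the 30 livers, coloured by genotype, with open circles for vehicle and filled squares for CDDO-Me. Wild-type mice all lie to the right of 2.52 on the x axis and form 2 levels by treatment, whereas C151S and Nrf2-knockout mice form 2 levels by Arntl with vehicle and CDDO-Me mixed.

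Comparing mice of the high-Arntl set alone, 10 wild-type, 5 C151S and 4 Nrf2-knockout libraries, the effect of CDDO-Me on Cyp2a5 was 0.18 in C151S (SE 0.28, adjusted p = 0.787, edgeR) and -0.41 in Nrf2-knockout mice (SE 0.30, adjusted p = 1.00, edgeR). In the low-Arntl set, a comparison added after the data were seen, it was 0.11 (SE 0.41) and -0.37 (SE 0.65). None of these was called.

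Whether the response differed between genotypes was tested as a contrast in 1 fit of all 30 libraries, at an adjusted p under 0.05. The response of Cyp2a5 was larger in wild-type than in C151S mice by 2.11 on the log2 scale (95% CI 0.10 to 4.11, adjusted p = 0.575, edgeR) and larger than in Nrf2-knockout mice by 3.01 (95% CI 0.98 to 5.04, adjusted p = 0.386, edgeR). Neither was called, and 0 of 7 members were called in these 2 contrasts, in which 0.480% and 0.266% of all genes were called, Nqo1 among them in both. With the Arntl side of each library as a covariate both contrasts of Cyp2a5 were called, at 2.48 (SE 0.49, adjusted p = 0.00838) and 3.01 (SE 0.49, adjusted p = 0.00160, edgeR). Among high-Arntl libraries alone they were 2.44 (adjusted p = 0.00609) and 3.03 (adjusted p = 0.00182, edgeR). The Arntl side was read from these same libraries and separates Cyp2a5 in both mutants. The calls that use it are therefore no independent support for a difference in response.

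The same contrasts for Cyp1a2 were 0.80 (95% CI -0.24 to 1.84, adjusted p = 0.728) and 1.43 (95% CI 0.39 to 2.47, adjusted p = 0.488, edgeR), the latter called among high-Arntl libraries alone (2.44, adjusted p = 0.00907, edgeR). For Cyp1a1 they were 0.21 (95% CI -0.81 to 1.23) and 0.56 (95% CI -0.46 to 1.58), and no setting called either. A smaller response of Cyp1a1 in the mutants was therefore not detectable, nor was an equal one shown. Between C151S and Nrf2-knockout mice, where 0.0133% of genes were called, 0 of 7 members differed in response.

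**Figure D5:**
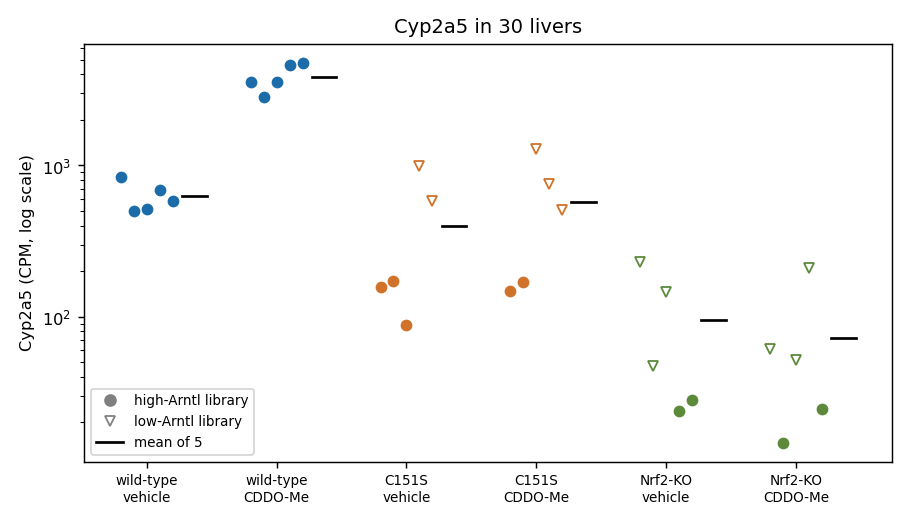
Cyp2a5 in each of the 30 mice by group (CPM on a log axis), with a black bar at the mean of 5 mice (Nrf2-KO, Nrf2-knockout); filled circles are high-Arntl and open triangles low-Arntl libraries. Wild-type mice rise from 498 to 835 CPM with vehicle to 2838 to 4760.4 CPM with CDDO-Me, and in each mutant group the open triangles lie above the filled circles.

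Under CDDO-Me, Cyp2a5 was 6.74-fold lower in C151S than in wild-type mice (log2 fold change -2.74, SE 0.53, adjusted p = 0.0124, edgeR) and 53.2-fold lower in Nrf2-knockout mice (-5.71, SE 0.68, adjusted p = 2.53e-04, edgeR). With vehicle it was 6.62-fold lower in Nrf2-knockout mice (-2.72, SE 0.57, adjusted p = 0.00998, edgeR), the only member called there, in a comparison that called 10.4% of all genes. No mutant mouse overlapped wild-type mice in any of these 3 comparisons, and the share of all genes for which this holds was not counted. Without the low-Arntl libraries the differences were larger, -4.60 in treated C151S (adjusted p = 2.30e-04), -7.59 in treated Nrf2-knockout (adjusted p = 2.35e-05) and -4.56 in vehicle-treated Nrf2-knockout mice (adjusted p = 2.59e-04, edgeR). Each of these values compares 2 mutant with 5 wild-type mice, after a split that also separates Cyp2a5 in both mutants. The fits behind them called 294, 1087 and 1168 genes, in the same order. In vehicle-treated C151S mice, where 4.84% of genes and 0 of 7 members were called, Cyp2a5 differed by -0.65 (95% CI -1.83 to 0.53, adjusted p = 0.474, edgeR). Its 2 low-Arntl mice, at 585 and 997 CPM, lay within or above the wild-type range, and its 3 high-Arntl mice below it, and among high-Arntl libraries alone Cyp2a5 was called lower at -2.14 (adjusted p = 8.07e-04, edgeR). That last fit called 2030 genes. The vehicle comparisons share the wild-type vehicle mice, and the CDDO-Me comparisons share the treated wild-type mice. The enzymes CYP2A5 and CYP1A2 are found mainly around the central vein. Summed pericentral markers under CDDO-Me ranged from 6241 to 8578 CPM in wild-type, 5556 to 12450 CPM in C151S and 3156 to 8537 CPM in Nrf2-knockout mice, with 0 of 10 markers called in either mutant. Their median log2 difference from wild-type was -0.26 in treated C151S and -0.66 in treated Nrf2-knockout mice, beside 0.03 over all genes, and -0.38 and -0.44 with vehicle, where Slc13a3 was called lower in C151S and Oat in Nrf2-knockout mice. Among high-Arntl libraries 4 pericentral markers were called lower in treated Nrf2-knockout and 5 in vehicle-treated C151S mice, in fits that called 1087 and 2030 genes. Of 10 periportal markers 5 were higher in treated Nrf2-knockout than wild-type mice, where 9.44% of all genes were called, and 2 among high-Arntl libraries. The part of liver zones in these differences was not tested.

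Between the mutants, Cyp2a5 was called higher in C151S than in Nrf2-knockout mice under CDDO-Me but not with vehicle. The log2 difference was 2.08 with vehicle (95% CI 0.62 to 3.54, adjusted p = 0.203, edgeR; 0.660% of genes called) and 2.98 with CDDO-Me (95% CI 1.47 to 4.50, adjusted p = 0.0426, edgeR; 0.839% called). The second was the only call among the members, its groups overlapped, and it was lost in 8 of the 30 fits that left out 1 mouse, with adjusted p from 0.0504 to 0.142 (edgeR). Those mice were C151S replicates 3, 4 and 5 and Nrf2-knockout replicates 1, 2, 3 and 5 of the treated groups and replicate 1 of the vehicle-treated wild-type mice. With the Arntl side as a covariate both were called, at 2.46 (adjusted p = 1.87e-04) and 2.99 (adjusted p = 1.47e-05, edgeR), and likewise among high-Arntl libraries, at 2.42 (adjusted p = 0.00188) and 3.01 (adjusted p = 9.23e-04, edgeR). Among low-Arntl libraries neither was, at 2.51 (adjusted p = 0.0933) and 2.96 (adjusted p = 0.0598, edgeR). The Arntl sets separate Cyp2a5 within each mutant, so the calls that use them are not independent support.

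Cyp2a4, as counted by reads with a single position, was not called in treated wild-type mice, with a log2 difference of 2.19 (95% CI 0.09 to 4.28, adjusted p = 0.271, edgeR) whose interval contains the fold change of Cyp2a5. It was at 0.177 to 4.08 CPM in vehicle-treated and 0.959 to 12.6 CPM in CDDO-Me-treated wild-type mice. In mutants it reached 269 CPM with vehicle and 688 CPM with CDDO-Me in C151S mice, and 244 and 209 CPM in Nrf2-knockout mice, while other mice of these groups were as low as 0.203 CPM. It was called higher with vehicle in C151S (6.76, SE 1.25, adjusted p = 0.00895) and Nrf2-knockout mice (5.99, SE 1.62, adjusted p = 0.0284, edgeR) than in wild-type mice. Among high-Arntl libraries these were 6.47 (adjusted p = 0.00153) and 3.796 (adjusted p = 0.103, edgeR), so that the second call was lost. Of the other relatives, Cyp2a12 stayed between 468 and 575 CPM in all group means, and the rare Cyp2a22 rose from 1.17 to 1.91 CPM in treated wild-type mice (0.70, adjusted p = 0.0339, edgeR). Cyp2a22 was also higher than in wild-type in vehicle-treated C151S (2.21 CPM; 0.93, adjusted p = 0.0335), vehicle-treated Nrf2-knockout (5.30 CPM; 2.22, adjusted p = 0.0152) and treated Nrf2-knockout mice (7.11 CPM; 1.91, adjusted p = 0.0221, edgeR). Among high-Arntl libraries these were 0.73 (adjusted p = 0.0584), 1.29 (adjusted p = 0.0185) and 1.87 (adjusted p = 0.0296, edgeR). For the sum of Cyp2a4 and Cyp2a5, exact permutation tests gave p = 0.00794, the smallest the design allows, for the 6.18-fold rise in wild-type mice and for the lower levels of treated C151S, treated Nrf2-knockout and vehicle-treated Nrf2-knockout than wild-type mice. In wild-type mice Cyp2a4 added only 0.991 CPM with vehicle and 4.49 CPM with CDDO-Me, so the sum there repeats Cyp2a5. Reads shared by the 2 genes are in neither count, and the sum does not recover them.

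Among 20 other genes of the AHR gene battery, 16 were tested in wild-type mice and 7 rose with CDDO-Me, 0 fell and 9 were not called. Of all genes 2.75% were called in this comparison. The 7 battery genes that rose were Nqo1, the UDP-glucuronosyltransferase Ugt1a6b, the glutathione S-transferases Gsta1, Gsta2 and Gstm1, the UDP-glucose dehydrogenase Ugdh and the monooxygenase Fmo2. Gstm1 had a log2 fold change of 2.42 (adjusted p = 5.08e-06), Ugdh of 1.52 (adjusted p = 5.08e-06) and Ugt1a6b of 0.50 (adjusted p = 0.0116, edgeR). Several of the 7, Nqo1 and the transferases in particular, are also known targets of NRF2, and Ugt1a genes share exons while Gsta and Gstm genes have near copies, so that their counts are partial. The median over the 16 genes was 0.50, beside -0.01 over all genes, and 0 of them were called in C151S or in Nrf2-knockout mice. Aldh3a1, a gene strongly induced by AHR ligands elsewhere, averaged 0.0633 CPM in treated wild-type mice, under the level of 3 counts, and was not tested. In vehicle-treated Nrf2-knockout mice 8 of the 16 were lower than in wild-type, Nfe2l2 itself among them and Gsta1 at -4.57 (adjusted p = 3.94e-04, edgeR), and 0 were higher. Of all genes 10.4% were called there. Among high-Arntl libraries, where 1168 genes were called, 7 of 16 were lower, with Gsta1 at -5.79 (adjusted p = 0.00726, edgeR).

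Of 15 genes for partners and coregulators of the receptor, 14 were tested and 0 were called by edgeR after CDDO-Me in any genotype. Hsp90aa1, an HSP90 gene, was lower with vehicle in C151S (-0.94, adjusted p = 0.00695) and Nrf2-knockout mice (-1.05, adjusted p = 0.00269, edgeR), but not called under CDDO-Me. Among high-Arntl libraries it was -1.14 (adjusted p = 0.00147) and -0.74 (adjusted p = 0.0421, edgeR). Nrip1, a corepressor of nuclear receptors, was lower in vehicle-treated Nrf2-knockout mice (-0.72, adjusted p = 0.00688) and in treated C151S and Nrf2-knockout mice (-0.73 and -0.87, adjusted p = 0.00406 and 0.00441, edgeR). Among high-Arntl libraries these were -0.56 (adjusted p = 0.0494), -0.66 (adjusted p = 0.0891) and -0.66 (adjusted p = 0.0383, edgeR).

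Of 15 factors that have been tied to Cyp2a5 transcription, 1 was called in treated wild-type mice, and 0 of 14 core clock genes and 0 of 4 genes of the DBP family and its antagonist were. Of all genes 2.75% were called there. The factor called was Nr1i3, which encodes CAR and went from 176 to 391 CPM (1.15, SE 0.19, adjusted p = 0.00398, edgeR). It was also lower in Nrf2-knockout than in wild-type mice, by -1.68 with vehicle (adjusted p = 0.00606) and -2.55 with CDDO-Me (adjusted p = 6.04e-05, edgeR), or -1.92 (adjusted p = 0.0101) and -2.48 (adjusted p = 0.00102, edgeR) among high-Arntl libraries. Cyp2b10, the standard CAR target, was not called in treated wild-type mice, at 22.4 and 16.1 CPM (-0.48, SE 0.37, adjusted p = 0.582, edgeR). With vehicle it was lower in Nrf2-knockout mice, at 5.48 CPM, than in wild-type (-2.003, adjusted p = 0.0141) and C151S mice (41.1 CPM; log2 difference C151S minus Nrf2-knockout 2.90, adjusted p = 0.0126, edgeR). Among high-Arntl libraries these were -2.82 (adjusted p = 0.0216) and 4.13 (adjusted p = 0.104, edgeR). Among 27 other P450 genes and P450 partners, 23 were tested and 3 rose (Cyp2c39, Cyp2g1 and Cyp3a13) while 3 fell. The falls were in Cyp2c55, Cyp2u1 and Cyp3a11, and Cyp3a11, the main hepatic steroid and drug oxidase, went from 8328 to 4084 CPM (-1.04, adjusted p = 9.31e-04, edgeR). The median over the 23 was 0.06, and 2.75% of all genes were called. Cyp2e1, a pericentral P450 of the same zone as Cyp2a5 and Cyp1a2, was at 5847 and 6106 CPM and was not called, and of 10 pericentral markers 0 were called in treated wild-type mice.

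Over the 30 libraries Cyp2a5, Cyp1a2 and Cyp1a1 varied together, with Pearson's r of log2 CPM of 0.81 between Cyp2a5 and Cyp1a2, 0.74 between Cyp2a5 and Cyp1a1 and 0.71 between Cyp1a1 and Cyp1a2. Tiparp had r of 0.25, 0.20 and 0.21 with the same genes and Cyp1b1 -0.40, -0.41 and -0.30. These values describe libraries that share groups and Arntl sets and carry no test. Among 12046 genes with a mean of at least 1 CPM, those most like Cyp2a5 were Akr1c19 (r = 0.94), Ugt2b5, Slc25a37, Blvrb and Msra (0.93 each). Cyp1a2 was closest to Akr1c6 (0.92), Tkt (0.90) and Ugt2b1 (0.89), and Cyp1a1 to Psme1 (0.87), Pkp4 (0.87) and Usp15 (0.85). Ahr was closest to Rbm26 (0.83), Ddx3x (0.79) and Prpf4b (0.78), and Tiparp to Slc30a1 (0.69) and Mtmr10 (0.63). The genes nearest to Arnt included Inpp1 (0.80) and Brdt (0.77).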

How the data were processed

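The authors aligned paired-end mRNA reads to mm10 with STAR and deposited raw counts per gene. The deposited counts are whole numbers without normalization, and reads with more than 1 position were not counted. Symbols and positions came from GENCODE release 21 (GRCm38), and start windows from RefSeq. The 8 members and all gene lists were chosen with earlier results of these data known. Groups were taken from the labels.

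In R 4.3.3, filterByExpr of edgeR 4.0.16 chose the genes to test. Library sizes were adjusted by TMM, and the legacy quasi-likelihood F-test was applied to the 2 groups compared. The 2 mutants, and responses, were compared as contrasts in a fit of 30 libraries. Each SE is the absolute log2 change over the root of F. CPM values were adjusted likewise, with a prior count of 2 where logged. The date of isolation, a covariate in the study, is not in the labels and was not used. Each library is from 1 mouse, so p-values measure the spread between mice. Intervals of fold changes hold that spread too, and floors cover counting error only.

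Alternatives were DESeq2 1.42.0, RLE factors, the edgeR 4 fit, no filter, at least 10 counts in every library, no size threshold, a replicate block, 1 fit of 30 libraries, Arntl side as a covariate, high-Arntl libraries alone, Cyp2a4 and Cyp2a5 summed, each mouse left out and, added after seeing the data, low-Arntl libraries alone and the gene lists in high-Arntl libraries alone. Replicate numbers are shared by the groups but mark no stated pairing. Deviations of same-numbered mice over the 2000 highest genes correlated above 0.1 in every pair of no comparison, so the numbers were not taken as pairs. Besides the members, the text names Nqo1 and Arntl as checks, list genes that were called or are highest, and the 5 genes (Cyp2a5) or 3 genes (other members above 1 CPM) most correlated with a member. Aldh3a1 and Cyp2b10 were named after their values were seen. Some genes that this rule names are not reported here.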

Additional observations from a re-analysis of the deposited data

Results flagged for a closer look

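Of 48 groups of 5 values (8 members in 6 groups), 5 held a mouse far from the other 4 by Dixon's criterion, which flags about 1 group in 20 by chance. Cyp2a5 stood at 211 CPM in replicate 4 of the CDDO-Me-treated Nrf2-knockout mice, where the others had 14.7 to 61.4 CPM. Cyp1a2 stood at 779 CPM in replicate 4 of the vehicle-treated C151S mice, where the others had 328 to 452 CPM. Without that mouse Cyp1a2 was called lower in C151S than wild-type mice (-1.01, adjusted p = 0.00303, edgeR). Both mice were in the low-Arntl set. Arnt stood at 37.7 CPM in replicate 2 of the vehicle-treated wild-type mice, where the others had 46.6 to 48.2 CPM. Cyp1b1 stood at 0.452 CPM in replicate 1 of the treated Nrf2-knockout mice, where the others had 0.826 to 0.938 CPM. Ahrr stood at 0.176 CPM in replicate 3 of the treated wild-type mice, where the others had 0.0586 to 0.0782 CPM, a difference of 5 against 2 counts.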

How the results depend on the processing

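No called value of a member changed direction under any alternative. RLE factors, at least 10 counts in every library and no size threshold moved no count of members called. In treated against vehicle-treated wild-type mice 3 members were called, 2 or 3 with 1 mouse left out and 0 in 1 fit of all 30 libraries. In vehicle-treated C151S against wild-type mice 0 were called, 1 (Cyp1a2) with DESeq2, without a filter or with the replicate block, 3 with the Arntl side as a covariate or in high-Arntl libraries alone, and 0 or 1 with 1 mouse left out. In vehicle-treated Nrf2-knockout against wild-type mice 1 was called, 2 (Cyp1a1 added) with DESeq2, the edgeR 4 fit or the block, and 1 to 3 with 1 mouse left out, Cyp1a2 joining without replicate 1 (adjusted p = 0.0233), Ahr and Cyp1a1 without replicate 4 and Cyp1a1 without replicate 5 of the knockout mice (edgeR). In treated C151S against wild-type mice 3 were called, 2 in 1 fit of all libraries (Cyp1a1 at adjusted p = 0.0533, edgeR), and 2 or 3 with 1 mouse left out. In treated C151S against Nrf2-knockout mice 1 was called, 0 in low-Arntl libraries alone, and 0 or 1 with 1 mouse left out. With vehicle the same contrast gave 0, and 1 (Cyp2a5) with the covariate or in high-Arntl libraries. The wild-type minus C151S response gave 0, and 1 (Cyp2a5) with either. The wild-type minus Nrf2-knockout response gave 0, 1 with the covariate and 2 in high-Arntl libraries. The cause of these moves was not tested. The paired fit with the replicate block changed no other call of a member. With Cyp2a4 and Cyp2a5 summed, the call between treated C151S and Nrf2-knockout mice was lost (2.61, adjusted p = 0.0888, edgeR). Under the settings that kept all mice of a set, counts over all genes moved by more than 1.5 times as follows. In wild-type mice 377 became 580 without a size threshold and 147 in 1 fit of all libraries. In C151S mice 13 became 100 with DESeq2, 34 in 1 fit, 23 without a filter, and 0 to 4 with 10 counts per library, the block, the covariate or either Arntl set. In Nrf2-knockout mice 0 became 55 with DESeq2 and 11 in 1 fit. With vehicle, C151S against wild-type went from 675 to 1904 with the covariate, 2030 in the high-Arntl set, 1160 without a size threshold and 382 in 1 fit, and Nrf2-knockout against wild-type from 1462 to 954 with the covariate and 2307 without a size threshold. With CDDO-Me, C151S against wild-type went from 692 to 1154 with DESeq2, 383 with the covariate and 294 in the high-Arntl set. Between the mutants, 99 with vehicle became 181 with DESeq2, 184 with the covariate and 20 in the high-Arntl set, and 126 with CDDO-Me became 213, or 41 in the high-Arntl set. Response contrasts went from 72 to 113 (DESeq2) or 40 (high-Arntl) for C151S, from 40 to 85, 22 or, with the block, 23 for Nrf2-knockout mice, and from 2 to 0 or 1 between the mutants. With 1 mouse left out, the 13 calls of C151S mice became 0 (without vehicle replicate 1, 2, 3 or 5 or treated replicate 3, 4 or 5) or 22 (vehicle replicate 4). With vehicle, C151S against wild-type gave 390 without C151S replicate 2, 1168 without C151S replicate 4, and 418 and 404 without wild-type replicates 4 and 5, and Nrf2-knockout against wild-type 949 without knockout replicate 3. With CDDO-Me, C151S against wild-type gave 1303 without C151S replicate 1, and 379 to 441 without C151S replicate 4 or 5 or wild-type replicate 1, 2, 3 or 4. Between the mutants, 99 became 56 without vehicle-treated knockout replicate 2 and 126 became 239 without treated C151S replicate 2. At most 11 counts of Ahrr, 42 of Cyp1b1 and 149 of Cyp1a1 lay behind a value in a library.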

Other observations

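Cyp2b9, a P450 gene of the same chromosome 7 region as Cyp2a4 that is known for higher expression in female than in male mouse liver, was measured in these male mice. Its means were 0.150 and 0.635 CPM in wild-type, 3.51 and 6.86 CPM in C151S, and 16.2 and 17.8 CPM in Nrf2-knockout mice, vehicle first. With vehicle it was called higher in C151S (4.65, SE 0.93, adjusted p = 0.0127) and in Nrf2-knockout mice (6.90, SE 1.30, adjusted p = 0.00606, edgeR) than in wild-type mice. Among high-Arntl libraries these were 4.62 (adjusted p = 0.0112) and 5.40 (adjusted p = 0.00859, edgeR). It was chosen after its values were seen. In Nrf2-knockout mice the P450 genes Cyp2c29, Cyp2c37, Cyp2c50, Cyp2c54 and Cyp3a25 were lower than in wild-type mice under both treatments, with Cyp2c29 at -1.56 with vehicle (adjusted p = 0.00255) and -1.52 with CDDO-Me (adjusted p = 0.0255, edgeR). In these comparisons 10.4% and 9.44% of all genes were called. Among high-Arntl libraries Cyp2c29 was -1.50 (adjusted p = 0.00808) and -1.97 (adjusted p = 0.0598, edgeR), and the other 4 were called lower under both treatments. These genes were picked from the list of other P450 genes and P450 partners. Among high-Arntl libraries 24 of that list were tested. With vehicle 7 were called lower and 1 higher, and with CDDO-Me 8 lower and 0 higher.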
